A study of Mus musculus with 11 samples.

Results

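The Skint and Nlrp1 genes described here are 6 of the 20740 gene names on a mouse genomic array: Skint3, Skint4, Skint6 and Skint9 on chromosome 4, and Nlrp1b and Nlrp1c on chromosome 11. They were chosen from measured values, namely the log2 ratio of tumour over liver DNA and the signal of each channel, read probe by probe relative to 5 Mb of sequence on both sides. With 2 more probes that lie between or beside Nlrp1b and Nlrp1c, they hold 77 probes, and all 6 genes are among the 9305 genes with at least 3 probes. Because the ratio and both channels chose them, the values of these 6 genes are given as a description, with no test.

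The samples are mammary tumours of 11 Pik3ca H1047R mice on a mixed FVBN/Bl6 background, 1 tumour per mouse (n = 11). Pik3ca H1047R is an activated form of the catalytic subunit of PI3-kinase. Tumour DNA, labelled with Cy5 (red), was hybridised together with liver DNA of the same mouse, labelled with Cy3 (green), so that each liver serves as the normal DNA of its own animal. All 11 mice carry the Pik3ca allele and the mixed background, the share of each strain in each animal is not given in the sources used here, and neither is what drives the allele or the age of the mice. Positions are those of mouse build mm9.

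Skint genes encode a family of butyrophilin-like membrane proteins, best known from the thymus and skin of mice. The founding member, Skint1, is needed for the γδ T cells of the epidermis to mature. Nlrp1 genes encode inflammasome sensors, and Nlrp1b, which sets off caspase-1 when the anthrax lethal factor protease cuts it, differs in sequence between laboratory strains. Nlrp1c is listed as a pseudogene, Nlrp1c-ps, in the later RefSeq gene table. Both families lie in tandem arrays of related copies, and a probe gives less signal where its target is missing and also where the target differs in sequence, so fewer copies and a poorer match cannot be told apart from these signals.

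The probes are oligonucleotides of 49 to 60 bases within these clusters, printed here as the deposited files give them, which do not name the strand. The first 6 are the Skint member probes with the 3 lowest and the 3 highest ratios in tumour 8, the tumour in which the Skint genes lay furthest from their flanks. They are shown because probes of a single gene, Skint6, fell at both ends of that order.
Skint3 probe, chr4:111906561-111906620: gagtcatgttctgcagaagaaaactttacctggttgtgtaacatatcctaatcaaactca
Skint6 probe, chr4:112548605-112548664: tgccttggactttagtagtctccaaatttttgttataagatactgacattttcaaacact
Skint6 probe, chr4:112842366-112842425: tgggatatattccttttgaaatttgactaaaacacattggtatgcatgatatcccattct
Skint6 probe, chr4:112802573-112802632: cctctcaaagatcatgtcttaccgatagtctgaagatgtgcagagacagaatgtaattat
Skint6 probe, chr4:112670756-112670815: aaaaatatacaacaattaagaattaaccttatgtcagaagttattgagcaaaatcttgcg
Skint6 probe, chr4:112504255-112504314: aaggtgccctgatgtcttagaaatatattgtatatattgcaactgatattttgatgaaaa

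The next 4 are the probes at both edges of the Nlrp1 stretch, the last probe outside and the first inside on the left, then the last inside and the first outside on the right. They are shown because several tumours and livers changed level between the same pairs of neighbours.
Nlrp1b probe outside, chr11:70976924-70976983: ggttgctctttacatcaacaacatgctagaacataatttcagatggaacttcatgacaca
Nlrp1b probe inside, chr11:70989862-70989921: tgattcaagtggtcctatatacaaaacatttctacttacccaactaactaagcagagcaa
Unnamed probe inside, chr11:71107044-71107103: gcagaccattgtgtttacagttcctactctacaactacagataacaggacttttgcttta
Unnamed probe outside, chr11:71121491-71121550: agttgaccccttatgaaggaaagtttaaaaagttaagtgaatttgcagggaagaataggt

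None of the 169 probes in both clusters shared a run of 20 bases, on either strand, with any other of the 170305 probes of the array. Their median GC content was 36.7%, as over the whole array. The array annotation assigns probes to genes without saying whether they lie in an exon or an intron.

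Some arrays stood apart. The arrays lie on 3 slides, with tumours 2, 3 and 8 on slide 1, tumours 4, 7, 9 and 11 on slide 2, and tumours 1, 5, 6 and 10 on slide 3. Over 161017 autosomal probes the ratios of tumour 11 correlated with those of tumours 4, 5, 9 and 10 at r = -0.60, -0.61, -0.65 and -0.32. In its green channel 3.05% of spots were not well above background, against 0.54% in red. In each of the other 10 arrays red had the larger share of such spots. The labelled direction is kept for tumour 11, and ratios of it that a result turns on are also given with the sign turned. If its dyes were exchanged, the values given here as liver 11 would be those of the tumour and the reverse. At all 6 members both of its channels were at least 1 below flanks, so that count is the same either way. The noise SD between neighbouring probes was 0.55 in tumour 9 and 0.51 in tumour 11, against 0.13 to 0.28 in the other arrays. Tumour 2 had uneven channels, with 15.5% of all probes at least 1 below their median over animals in its liver and 14.1% in its tumour.

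The first question was what each animal's own liver showed at these genes. In the livers of animals 7 and 11, all 6 genes had far less processed signal than their flanks. In the other 9 livers none reached 1 below them on the log2 scale. A signal here is the log2 processed intensity of a channel, relative to the median of that probe over the 11 arrays and to the flanks. At least 1 below flanks lay all 6 members in liver 7, where 0.193% of 9305 genes did, and all 6 in liver 11, where 0.14% did. In both livers together there were 10 such genes (0.107%), these 6 and 4 others. The 6 genes were chosen with these signals, so the counts describe them and show nothing further.

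Skint9 had the lowest liver signal of the 4 Skint genes, -3.15 in animal 7 and -2.17 in animal 11, against -0.49 to 0.22 in the other 9 (median 0.01). For Skint3 the liver signal was -2.72 and -2.13, against -0.39 to 0.19, and the lowest of those 9 was animal 2. Skint4 stood at -1.90 and -1.46, with the other livers between -0.05 and 0.24. For each of these genes animals 7 and 11 lay apart from all other animals, with no overlap. Skint6, the longest of the 4 on the array with 42 probes, showed -1.70 and -1.50, against -0.19 to 0.11. On chromosome 11, Nlrp1b stood at -2.11 and -1.91 against -0.09 to 0.25. Nlrp1c, its neighbour, stood at -2.54 and -2.74 against -0.13 to 0.21. The gap between animals 7 and 11 and the rest was again free of overlap. How many of all genes set these 2 animals apart without overlap was not counted.

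Tumour DNA of the same 2 animals showed the same low signals. In tumour 7 the 6 genes ranged from -2.74 (Nlrp1c) to -1.55 (Skint6), and in tumour 11 from -3.19 (Nlrp1c) to -1.60 (Skint6). At least 1 below flanks stood all 6 in tumour 7 (0.15% of all genes) and all 6 in tumour 11 (0.172%). Liver and tumour of an animal were thus low at the same genes, and both channels were at least 1 below flanks for 0.129% of all genes in animal 7 and 0.086% in animal 11.

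**Figure D1:**
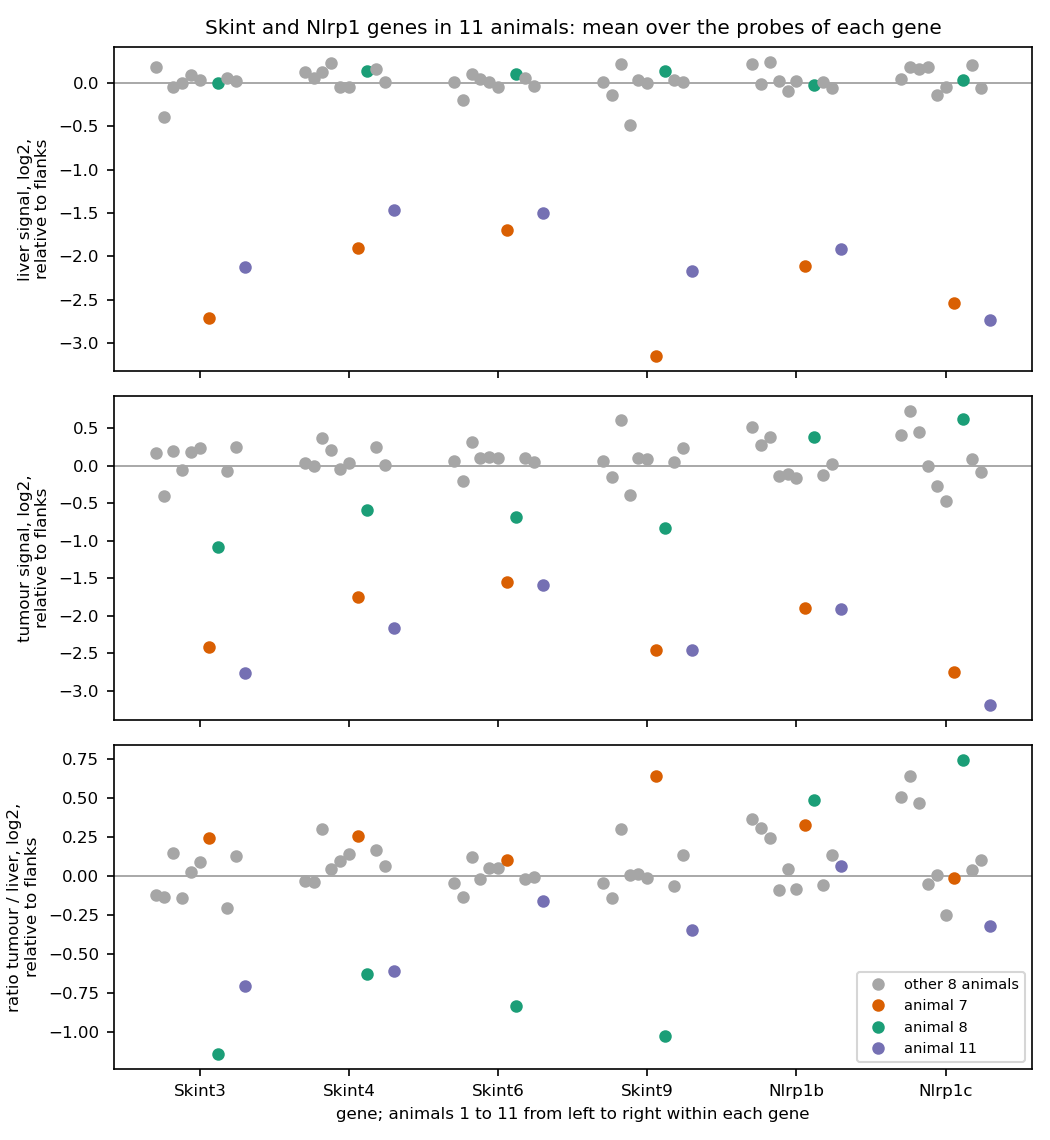
Each point is 1 animal: the mean over the probes of a gene, in log2 units relative to the flanks, for the liver signal (top), the tumour signal (middle) and the ratio of tumour over liver (bottom), with animals 7, 8 and 11 in colour. Animals 7 and 11 lie apart in liver and tumour at all 6 genes, and tumour 8 lies low at the 4 Skint genes in the tumour signal and the ratio but not in its liver.

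Animals 7 and 11 lie on 1 slide, together with animals 4 and 9. Against those 2 livers alone, the 6 genes were lower by 1.54 to 2.96 in animals 7 and 11 relative to flanks, with processed signals.

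How large the drop was depended on how the background was subtracted. With net median signals (spot median minus local background), none of the 12 liver values of animals 7 and 11 reached 1 below flanks. Their difference from animals 4 and 9 was -0.89 to -0.14. The mean over the 6 genes relative to flanks was -0.507 in liver 7 and -0.143 in liver 11, against -2.353 and -1.985 with processed signals. Of the 12 tumour values, 9 reached 1 below flanks with net median signals. All 12 did against animals 4 and 9, at -1.74 to -1.01, a comparison chosen after seeing the data. On that slide the dimmest 1% of liver spots ended at 2.95 to 3.60 times the local background. On the other 7 arrays they ended at 2.19 to 6.07 times it. What part this has in the smaller drop was not tested. Ranked among all probes of its own array with nothing subtracted, a gene's median probe in livers 7 and 11 stood at percentile 0.117 to 3.37, against 3.92 to 32.1 in livers 4 and 9 and 3.15 to 45.1 in the other 7. Gene by gene, livers 7 and 11 were below all other 9 livers at 6 of 6 genes in this ranking. The ranges over the genes overlapped with those of the other 7. These genes were chosen with the liver signals, and the share of all genes with this order was not counted. The depth of the drop in log2 units depended on the subtraction. The spreads, counts of dim probes, signal segments and probe correlations given below rest on processed signals only.

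Over all 11 livers the signal of Skint9 had an SD of 1.11 between animals, the largest of the 9305 genes, and Nlrp1c ranked next. Skint3 ranked 6 with 1.00, Nlrp1b 26 with 0.84, Skint4 63 with 0.73 and Skint6 109 with 0.66, where the median gene had 0.15. In the tumour channel the same genes ranked between 14 (Nlrp1c) and 77 (Skint6). The 2 low animals set this spread in both channels. The 6 genes were chosen with these signals, so their ranks are a description and show nothing further.

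The low signal did not cover whole clusters. In the Skint stretch, from 111592906 to 113876179 on chromosome 4, 74 of 150 probes had a mean liver signal of at most -1 in animals 7 and 11, 59 were above -0.5 and 17 lay between. The 74 dim probes ran from 111742887 to 113634557. All 7 probes of Skint3 and all 6 of Skint9 were among them, as were 7 of 9 of Skint4. Skint6 was mixed, with 27 of 42 probes dim and 9 above -0.5. Its probe at 112548605 stood at -3.35 in liver 7 and -2.55 in liver 11, and its probe at 112504255, 1 of those printed above, at -0.04 and 0.16. Dim and bright probes thus alternated within 1 gene.

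None of the other Skint genes of the array reached 1 below flanks in liver 7 or 11. Skint1, the family member needed for epidermal γδ T cells, stood at -0.16 in liver 7 and 0.01 in liver 11, on only 2 probes. Skint8 stood at -0.17 and -0.21, Skint7 at 0.02 and -0.32, and Skint2 at -0.34 and -0.36. Skint10 stood at -0.61 and -0.32, with 2 of its 7 probes dim. The other 9 livers went down to -0.15 for Skint2 and -0.10 for Skint10, so both genes were lower in livers 7 and 11 than in any other. Skint11 stood at 0.09 and -0.20, but at -1.63 in liver 2 and -1.74 in tumour 2, the array with uneven channels. No probe is named Skint5. The transcript EU099301, which lies between Skint6 and Skint11 where the later gene order has Skint5, showed -0.88 and -0.55, with 9 of 28 probes dim.

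On chromosome 11 the low stretch had a sharp left edge, while the first probe beyond its right edge was still partly low. Its span, from 70989862 to 71107103, was named when the genes were chosen with these values, so the edges are given as a description. Segmentation, which splits a chromosome into runs of probes of like level, placed the liver drop of animal 7, that of animal 11 and the tumour drop of animal 11 at the same 11 probes, from 70989862 to 71107103, with means of -2.67, -2.53 and -3.00. In tumour 7 the same span was split in 2, with means of -2.40 and -3.03. At the left edge, the printed probe inside stood at -2.90 in liver 7 and -2.93 in liver 11, and the printed probe outside at -0.28 and -0.19. At the right edge the probe inside stood at -3.58 and -3.28, and the probe outside at -0.73 and -1.04. Inside the stretch, the probe of the transcript DQ117583 stood at only -0.96 in liver 7 and -0.19 in liver 11. The left edge falls within Nlrp1b, whose probes at 70967264 and 70976924 lay outside it. Nlrp1a, the third gene of the array, stood at 0.03 in liver 7 and 0.17 in liver 11, with none of its 6 probes dim.

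The pattern from probe to probe was alike in the samples with low signal. Over the 150 Skint probes, liver 7 correlated with tumour 7 at r = 0.94, with liver 11 at r = 0.90 and with tumour 11 at r = 0.92, and over the 910 flank probes at 0.76, 0.60 and 0.32. Over the 19 Nlrp1 probes the values were 0.95, 0.97 and 0.95, and over the 897 flank probes 0.67, 0.60 and -0.05. These are descriptions over probes, which share an array or a slide and their own brightness, and probes are not replicates.

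**Figure D2:**
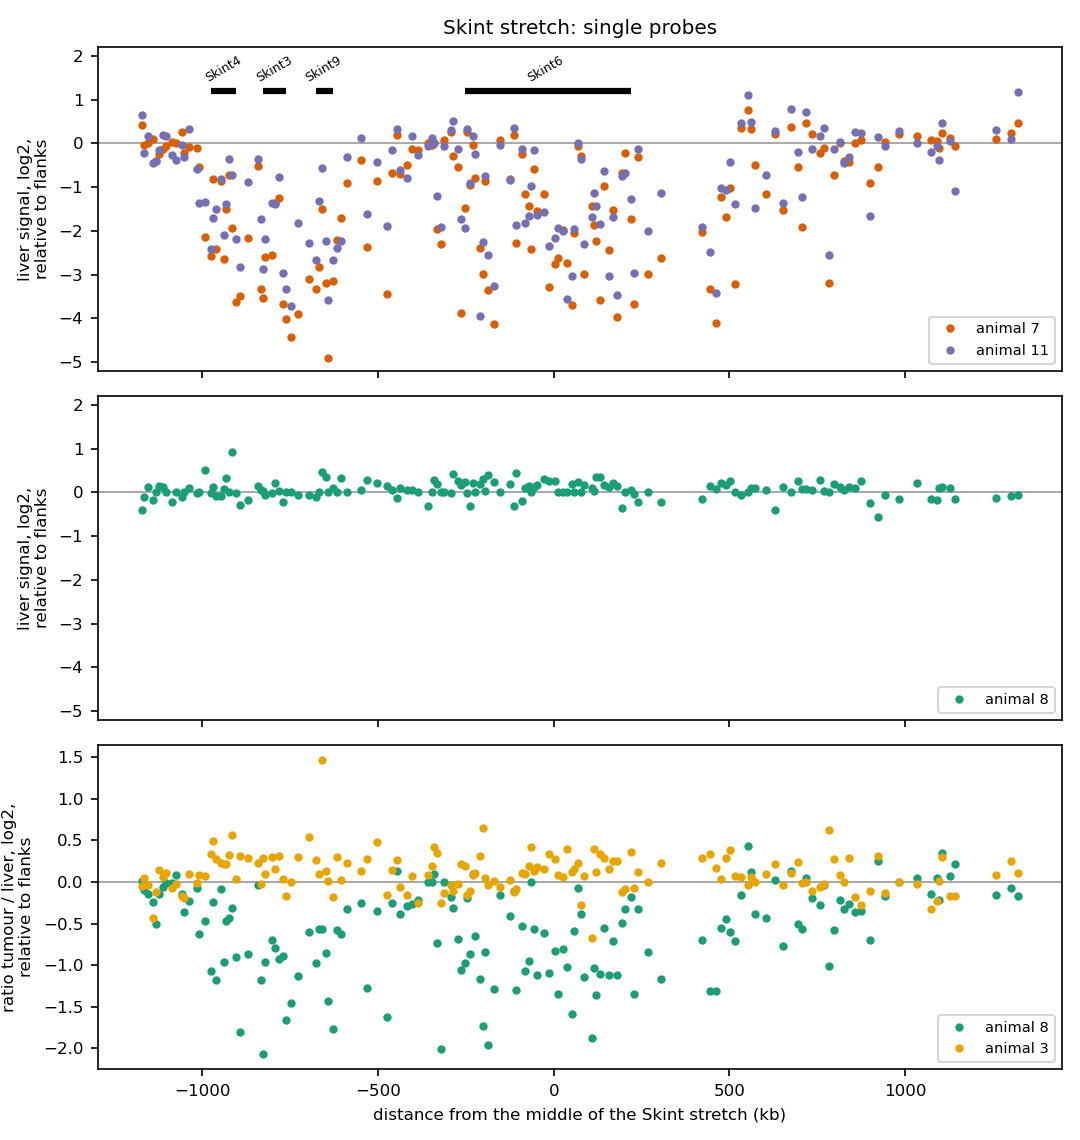
Each point is 1 probe of the Skint stretch, placed by its distance in kb from the middle of the stretch, with log2 values relative to the flanks: the liver signal of animals 7 and 11 (top, with the spans of the 4 genes as bars), the liver signal of animal 8 (middle) and the ratio in tumours 8 and 3 (bottom). The liver of animal 8 stays near 0 while its ratio falls to as low as -2.07, mostly over the probes that are dim in livers 7 and 11.

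The second question was where tumours differed from their own livers. Of the 66 pairs of member gene and tumour, 9 (13.6%) had a ratio at least 0.3 above flanks, where 2.53% of all gene and tumour pairs did, and 8 (12.1%) at least 0.3 below, against 3.03%. With tumour 11 turned, 13 pairs (19.7%) lay above, against 2.22% of all pairs, and 4 (6.06%) below, against 3.34%. The pairs were chosen by this ratio. They fell into 2 patterns, low Skint genes in tumour 8 and high Nlrp1 genes in tumours 1, 2, 3 and 8, beside ratios of tumours 7 and 11 that rest on dim probes.

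In tumour 8 all 4 Skint genes had lower signal than in the liver of the same animal. The ratio was -1.14 for Skint3, -1.03 for Skint9, -0.84 for Skint6 and -0.63 for Skint4. Both Nlrp1 genes lay on the other side in this tumour. All 4 Skint genes were at least 0.3 below flanks, where 0.279% of all genes in this tumour were. The low ratio was not confined to the members. Skint10 stood at -0.45 and the transcript EU099301 at -0.40, while the remaining Skint genes ranged from -0.29 (Skint1) to 0.21 (Skint11). The liver of animal 8 stood at 0.00, 0.14, 0.11 and 0.14 for Skint3, Skint9, Skint6 and Skint4, inside the range of the other livers for all but Skint6, where it was the highest, next to 0.10 in animal 3. Its tumour signals were -1.09, -0.83, -0.68 and -0.59, so the low ratio came from the tumour channel. Skint3 was the 1 member at least 1 below flanks there, and the 1 gene of 9305 (0.0107%). Of the 64 Skint member probes, 63 lay below their flanks in this ratio, and 17 were not well above background in the tumour channel. Without probes not well above background the mean of the 4 genes was -0.74 in place of -0.91.

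The drop in tumour 8 sat inside a longer stretch of less low ratios. Segments of -0.31 up to 111718240 and of -0.28 from 113658214 onwards enclosed 11 segments between 111726014 and 113634557 with means of -1.56 to -0.48, on the scale of the array median. The deepest of them, 5 probes from 112525048 to 112564300, lay in Skint6. A segment of -1.22 from 111831196 to 112105569 held Skint3 and Skint9. The segment from 112273704 to 112447221, with Skint2 and Skint10, was the shallowest at -0.48. In liver 7 that span formed a segment of its own, with a mean of -0.44.

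The other tumours showed much smaller Skint ratios. Skint3 ranged from -0.21 (tumour 9) to 0.15 (tumour 3) in tumours 1 to 6, 9 and 10. Skint9 ranged from -0.14 in tumour 2 to 0.30 in tumour 3 over the same 8 tumours, and Skint6 from -0.14 to 0.12 in the same 2 tumours. Skint4 reached 0.30 in tumour 3, its highest ratio of all. Tumour 3 was thus the highest of these 8 at each of the 4 Skint genes, and a segment of 0.17 in it ran from 111726014 to 113574763, starting at the same probe as the drop of tumour 8. In tumour 2 a segment of -0.18 ran from 111831196 to 113156414.

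Ratios in tumours 7 and 11 compare dim signals with dim signals. Of the 64 Skint member probes, 34 were not well above background in liver 7 and 43 in tumour 7, and 43 in liver 11 and 38 in tumour 11. Tumour 7 had ratios of 0.24 for Skint3, 0.25 for Skint4, 0.10 for Skint6 and 0.63 for Skint9. With Skint9 and Nlrp1b, 2 members were at least 0.3 above flanks in tumour 7 (0.785% of all genes). Tumour 11 had -0.71 for Skint3, -0.61 for Skint4, -0.16 for Skint6 and -0.35 for Skint9 in the labelled direction, and the opposite sign if turned. Nlrp1c stood at -0.32 there, so 4 members were at least 0.3 below flanks, in an array where 9.45% of all genes were. If this array is turned, Nlrp1c stands at 0.32 and the same 4 members and the same 9.45% of genes lie above in place of below.

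Nlrp1b and Nlrp1c were higher in the tumour than in the liver in tumours 1, 2, 3 and 8. Nlrp1c had ratios of 0.51, 0.64, 0.47 and 0.74 in these 4 tumours, against -0.25 to 0.10 in tumours 4, 5, 6, 9 and 10. Nlrp1b, of which 2 probes lie outside the stretch, had 0.36, 0.30, 0.24 and 0.48, against -0.09 to 0.13. The 4 tumours did not overlap with those 5 at either gene. They were grouped by these values, and the share of all genes that separate the same tumours was not counted. Both genes were at least 0.3 above flanks in tumour 1 (0.312% of all genes), tumour 2 (2.75%) and tumour 8 (0.355%), and Nlrp1c alone in tumour 3 (0.666%).

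Over the 11 probes from 70989862 to 71107103, the ratio was 0.52 ± 0.14 (SD over probes) in tumour 1, 0.56 ± 0.15 in tumour 2, 0.48 ± 0.13 in tumour 3 and 0.72 ± 0.13 in tumour 8, and each of the 11 probes was above the flanks in each of these tumours. The livers of the 4 animals stood at 0.13, 0.09, 0.16 and 0.00, and their tumours at 0.51, 0.56, 0.46 and 0.57, so the difference lay mostly in the tumour channel. Tumour 8 combined this with flanks at -0.27 relative to its array median. Its highest probes were those of Nlrp1b at 71014299 (0.98), of Nlrp1c at 71076914 (0.90) and of Nlrp1b at 71001060 (0.80). Its lowest member probes were the 2 of Nlrp1b outside the stretch, at -0.10 and -0.05, and that of the transcript DQ117583, between Nlrp1b and Nlrp1c, at 0.51.

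Tumour 6 ran the other way. Its ratio over the 11 probes was -0.21 ± 0.16 (SD over probes), with 10 of 11 probes below the flanks, a liver at -0.01 and a tumour signal of -0.39. Nlrp1c stood at -0.25 and Nlrp1b at -0.08 in this tumour, neither beyond 0.3. In tumours 4, 5, 9 and 10 the 11 probes had means of -0.01, 0.07, 0.12 and 0.12, each smaller than its SD over probes.

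Segment edges in the ratio matched those of the livers with low signal. The stretch itself was chosen with these ratios and signals, so the match is a description. In tumours 1, 2 and 8 a segment ran from 70989862 to 71107103, the same first and last probe as the drop in livers 7 and 11, with means of 0.47, 0.59 and 0.45. In tumour 3 it began 1 probe later, at 71001060, with a mean of 0.54. Tumour 6 had a segment of -0.43 from 71032791 to the same last probe.

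**Figure D3:**
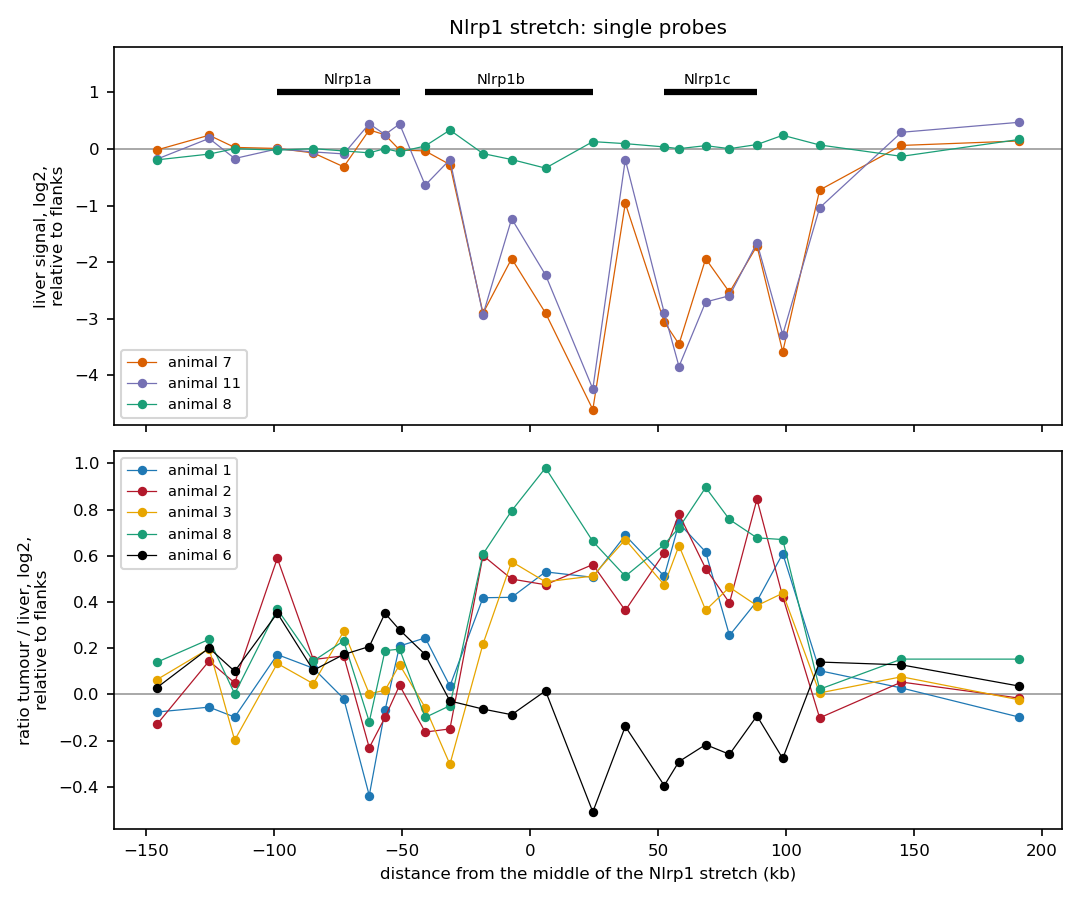
Each point is 1 probe of the Nlrp1 stretch, placed by its distance in kb from the middle of the stretch, with log2 values relative to the flanks: the liver signal of animals 7, 11 and 8 (top, with the spans of the 3 genes as bars) and the ratio in tumours 1, 2, 3, 8 and 6 (bottom). The ratios of tumours 1, 2, 3 and 8 rise and that of tumour 6 falls over the probes that are dim in livers 7 and 11, and all return to the flanks at the same right edge.

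The Nlrp1 ratio moved in part with the slide. All 3 tumours of slide 1 (2, 3 and 8) had 0.48 to 0.72 over the 11 probes. On slide 3, tumour 1 had 0.52 while tumours 5, 6 and 10 had 0.07, -0.21 and 0.12. On slide 2, tumours 4 and 9 had -0.01 and 0.12, and tumours 7 and 11 had 0.36 and -0.37 (0.37 if turned) on probes of which 8 and 9 were not well above background in the liver. The part of the slide in this result was not tested.

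Within both clusters, the ratios of the other 9 tumours were also read by how dim a probe was in livers 7 and 11, a split chosen after seeing the data. In tumour 8 the 74 dim Skint probes had a mean ratio of -1.02 ± 0.44 (SD over probes), and the 59 that were not dim had -0.14 ± 0.23. In tumour 3 the means were 0.19 ± 0.26 and 0.01 ± 0.18, and their difference of 0.17 was less than either SD over probes. In the other 7 tumours the 2 classes of Skint probes differed by -0.12 to 0.03, also less than the SD over probes. The low ratio of tumour 8 was thus mostly at the probes that are dim in livers 7 and 11. Over the 150 probes its ratio correlated with the mean signal of livers 7 and 11 at r = 0.84. The members of both clusters were chosen with these ratios and liver signals, so this likeness is a description.

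The Nlrp1 probes split the same way. The 10 dim probes had mean ratios of 0.50, 0.57, 0.46 and 0.74 in tumours 1, 2, 3 and 8, and the 8 that were not dim had 0.03, 0.04, 0.03 and 0.11. In tumour 6 the dim probes stood at -0.22 ± 0.16 and the others at 0.20 ± 0.13. In tumours 4, 5, 9 and 10 the 2 classes differed by -0.15 to 0.09. Tumour 8 therefore had opposite ratios over the dim probes of the 2 clusters, low for Skint and high for Nlrp1.

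**Figure D4:**
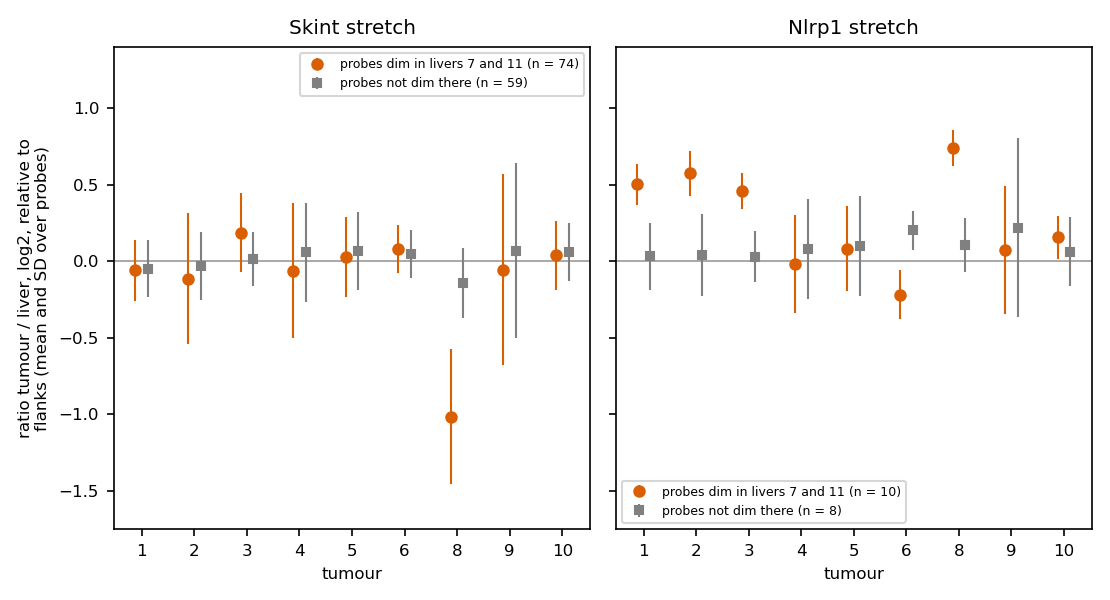
Mean log2 ratio of tumour over liver, relative to flanks, with the SD over probes as bars, for the probes that are dim in livers 7 and 11 (mean signal at most -1, orange) and those that are not (above -0.5, grey), in the 9 other tumours. The 2 classes lie apart for Skint in tumour 8, and for Nlrp1 in tumours 1, 2, 3, 6 and 8.

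The genes beside the clusters did not share the low liver signal. Slc5a9, a sodium and sugar cotransporter gene before the Skint stretch, stood at 0.19 in livers 7 and 11, and Gm12824 after it at -0.04 and 0.12. Mis12, a kinetochore gene before the Nlrp1 stretch, has 1 probe, at 0.04 and 0.52. The transcript ENSMUST00000100923 after it stood at -0.15 and -0.23. In tumour 8 the ratios of Slc5a9 and Gm12824 were -0.10 and -0.13 relative to the same flanks. In tumours 1, 2, 3 and 8 the ratio of Mis12 was 0.25, 0.34, 0.28 and -0.10, and it was highest in tumour 9, at 0.88. That of ENSMUST00000100923 was 0.06, 0.00, 0.01 and 0.01 in those 4 tumours. Nlrp1a, within the Nlrp1 cluster, had -0.0045, 0.10, 0.10 and 0.17 there, and was highest in tumour 9, at 0.49.

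Genes whose ratios over the 11 tumours were most like those of the clusters were found by root mean square difference, outside the clusters and their flanks. For the Skint genes they were Mmel1 (0.19), Dhrs3 (0.20) and Cry2 (0.21), where the median gene had 0.31. For the Nlrp1 genes they were BC088837 (0.25), Afm (0.26) and Rhcg (0.26), where the median gene had 0.40. BC088837, on chromosome 12, was also among the 4 other genes with low signal in livers 7 and 11.

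Related families were read from lists. Over all 11 tumours, limma with Benjamini-Hochberg adjustment called 427 of 9305 genes higher in tumour than in liver (4.59%) and 214 lower (2.3%), relative to the array median. Besides the members, 4 Skint family genes, 1 butyrophilin, 18 NLR and inflammasome genes and 20 genes listed under other strain-variable families could be tested. None was called higher, and Naip1, a sensor of the bacterial type III secretion needle and a member of both of the last 2 lists, was called lower, at -0.25 ± 0.06 (SE; limma adjusted p = 0.029, n = 11). That call was lost with mode centring (limma adjusted p = 0.063) and without any 1 of tumours 1 and 3 to 8 (0.054 to 0.072). At an unadjusted p below 0.05, 4 of these 41 genes were higher and 8 lower, and 2137 of all genes passed. The list medians were -0.06, -0.15, -0.04 and -0.02, where the median of all genes was -0.01. Among genes that were not called, Btnl9, a butyrophilin-like gene, had -0.15 (limma adjusted p = 0.07), Skint2 -0.13 (0.29) and Skint10 -0.07 (0.51). No tested gene of these lists other than the members had a liver signal at least 1 below flanks in animal 7 or 11. The list of other families was drawn by the start of gene names. It thereby includes Klraq1 on chromosome 17, while the tested Klra genes lie on chromosome 6.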

How the data were processed

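Genomic DNA of 11 tumours and matched livers was hybridised to 2-colour Agilent arrays. Per the file headers, the deposited scanner files hold the intensity of both channels per spot, background-subtracted and dye-normalized by the authors' software, and a log10 ratio of red over green. The deposited value table holds the log2 of that ratio. The submitters' processing notes name Feature Extraction 10.5.1.1 and Partek, the latter with no version, and the headers of tumours 4, 7, 9 and 11 name Feature Extraction 11.0.1.1.

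Outlier spots were left out, spots of a probe averaged, and the array median subtracted. Gene values are means over probes minus the median of 5 Mb flanks. Segments used optimal partitioning (penalty factor 2, at least 5 probes). Genes holding 3 probes or more entered limma, and a call needed an adjusted p under 0.05 with a mean 0.1 or more from 0. Scripts were tested on simulated data. Alternatives covered background correction, centring, flanks, thresholds, tumour 11 turned, left-out tumours and slides. The number of arrays limits the precision.

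Members and lists were chosen with earlier results of these data known. The named genes were the members, the rest of both families, the 2 strongest genes per list, the 3 most alike per cluster, neighbouring genes, and 3 probes at each end in tumour 8. Gene names came from the array, and a later RefSeq table (GRCm38.p6) served only for names and order. Work used Python 3.11.15, numpy 2.4.6, pandas 2.3.3, scipy 1.17.1, numba 0.67.0 and matplotlib 3.10.9, and limma 3.58.1 and statmod 1.5.0 under R 4.3.3.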

Additional observations from a re-analysis of the deposited data

How the results depend on the processing

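Normexp background correction, run on median signals because the files of slide 2 hold no mean signals, gave means over the 4 Skint genes of -0.53 in tumour 8, 0.0523 in tumour 7 and -0.0788 in tumour 11, against -0.91, 0.31 and -0.46, and 4 pairs at least 0.3 below flanks against 8. Net median signals gave 0 of 12 liver values of animals 7 and 11 at least 1 below flanks, also against animals 4 and 9 of the same slide, a setting chosen after seeing the data, and 0 in the tumours of the other 9 animals against 1. Flanks of 2 Mb also gave 0 there. With tumour 11 turned, its Skint mean reversed to 0.46, and 4 pairs lay below. Thresholds of 0.2 and 0.5 gave 14 and 4 pairs above, against 9. Leaving out each tumour gave 7 to 9 pairs above and 4 to 8 below, 4 without tumour 8 or without tumour 11. The Nlrp1 means of tumours 1, 2, 3 and 8 kept their direction in each alternative run, as did the Skint mean of tumour 8. With the median over probes, chosen after seeing the data, no count of low signals moved.

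The limma counts depended on the arrays and the centring. They were 829 higher and 851 lower with tumour 11 turned, 656 and 390 with normexp, 238 and 66 with mode centring, and 762 and 739 with slide as a random block, against 427 and 214. Leaving out each tumour gave 36 to 831 higher and 18 to 781 lower, lowest without tumour 3 and highest without tumour 11. List genes called were 2 higher and 10 lower with tumour 11 turned, 2 lower with normexp, 0 lower with mode centring, 2 higher without dim probes, and 2 higher and 6 lower with slide as a random block, against 0 and 1. Leaving out each tumour gave 0 to 2 higher and 0 to 8 lower. Mode centring moved the array of tumour 11 most, with its mode at -0.12 from its median. Signals near background limit every value of animals 7 and 11, and each cluster value rests on 1 array per animal.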

Other observations

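Besides the 6 members, 4 genes had a liver signal at least 1 below flanks in both animals 7 and 11. BC088837 on chromosome 12, from 116250199 to 116304721, had -1.86 in liver 7 and -1.52 in liver 11, with tumour signals of -1.72 and -1.82, and the other 9 livers lay between -0.96 and 0.09. Ctnnd1, which encodes p120 catenin, a cytoplasmic partner of cadherins, had -1.30 and -1.42 on 4 probes, against -0.51 to 0.13 in the other livers. 1110020A21Rik on chromosome 17 had -1.02 and -1.18, against -0.07 to 0.20. The transcript ENSMUST00000110519 on chromosome 8 had -1.16 and -1.04, but the other livers reached down to -1.39. In tumours 7 and 11 the signals were -0.91 and -0.84 for Ctnnd1 and -0.98 and -0.89 for 1110020A21Rik. For ENSMUST00000110519 they were -0.89 and -1.18. Only BC088837 was thus at least 1 below flanks in both of these tumours.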
